A study of Mus musculus with 25 samples.

Results

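The integrated stress response lowers general protein synthesis through phosphorylation of the initiation factor eIF2, and under these conditions the mRNA of the transcription factor ATF4 is translated more efficiently. ATF4 then induces genes for amino acid uptake, amino acid synthesis, tRNA charging and, when stress persists, cell death. In T cells this programme is known to be engaged when activated or dividing cells need amino acids. The genes described here are Atf4 and 9 genes of this response, Atf5, Ddit3, Ddit4, Trib3, Asns, Chac1, Sesn2, Psat1 and Phgdh. They were chosen by name, and all 10 were found by symbol among the 48795 genes of the table. All 10 were among the 14141 genes tested, the minimum being a mean of 10 normalized counts over the 25 libraries. Chac1 passed this minimum only through the control libraries at 3 hr, so that a difference at that time was built into its passing.

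RNA was sequenced from sorted Thy1.2+CD44- thymocytes (double-negative stages DN3 and DN4) of Rag1-deficient mice aged 7 to 8 weeks that carried CD2-Cre, a Cre transgene driven by the human CD2 promoter. Control cells came from Wnk1fl/+ mice and keep an intact Wnk1 allele, and WNK1-deficient cells came from Wnk1fl/fl mice. The absence of RAG1 holds thymocytes at the DN3 stage, and injected anti-CD3ε antibody replaces the pre-TCR signal. Mice were left uninjected (0 hr) or received 150 µg anti-CD3ε and were analysed at 3, 24 or 48 hr, with 3 libraries per group and 4 for WNK1-deficient cells at 0 hr.

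Depth was between 22.5 and 57.3 M reads per library with a median of 36.6 M. Wnk1 itself was lower in WNK1-deficient than in control libraries at all 4 times, by between 0.83 and 1.05 on the log2 scale, each past the test. Thymocyte markers (summed normalized count of 9 genes between 150345 and 458069) were high in all groups. At 0 hr that sum was 420989 to 458069 in control and 283515 to 346911 in WNK1-deficient libraries, and the sums of myeloid (2108 to 2620 against 682 to 1670), B lineage (2229 to 2607 against 816 to 1166) and thymic epithelial markers (3514 to 3709 against 2774 to 3274) were also lower in every WNK1-deficient library. Mitochondrially encoded reads made up 1.77% to 3.35% in control and 3.35% to 4.00% in WNK1-deficient libraries. Their part in the differences at 0 hr was not tested. Control replicate 3 at 3 hr stood apart with 12652 normalized counts of Cd8a and 5508 of Cd4, markers of later double-positive thymocytes, against 54.0 and 432 of Cd8a in the other control libraries at that time. A control library at 24 hr and a WNK1-deficient library at 48 hr, each replicate 3, also stood apart, with the highest Il2ra (CD25, a DN3 marker) of their groups. At 48 hr Il2ra did not by itself set replicate 3 apart, with 22173, 8068 and 25196 normalized counts in WNK1-deficient replicates 1, 2 and 3. The root mean square log2 distance from the rest of the group, over all genes tested, was largest for control replicate 3 at 24 hr (0.863). WNK1-deficient replicate 3 at 48 hr came next (0.841). Distance did not by itself pick out control replicate 3 at 3 hr, where it was 0.783. It was larger for control replicate 1 at 3 hr (0.818) and control replicate 2 at 24 hr (0.821). The summed count of 4 Y-linked genes was at most 4.92 at 0 and 48 hr and at least 3704 at 3 and 24 hr in both genotypes, so that sex was shared between the genotypes at each time but differed between 0 hr and 3 or 24 hr, and the effects of sex and of anti-CD3ε in those steps cannot be told apart. The steps from 3 to 24 hr and from 0 to 48 hr are within a sex. Libraries at 0 hr were named for lanes 1 and 2 and those at 3 and 24 hr for lanes 3 and 4, and WNK1-deficient libraries at 48 hr (lanes 1, 1 and 3) shared no lane with those at 0 hr, so that lane and time cannot be told apart in these steps within a genotype. At 0 hr, lane and genotype cannot be told apart either, because all control libraries were named for lane 1 and all WNK1-deficient libraries for lane 2. Within groups, lanes 1 and 2 are linked only by control replicate 3 at 48 hr. Lanes 1 and 2 are linked to lanes 3 and 4 only by WNK1-deficient replicate 3 at 48 hr, which stood apart. Values with lane as a covariate that involve 0 or 48 hr therefore rest on these single libraries.

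Promoter sequence was examined because ATF4, paired with a C/EBP protein, binds the C/EBP-ATF response element. The core TGATGNAA was searched on both strands in 300 bases around the start of each gene (250 before to 50 after, RefSeq, GRCm38.p6). It was found for 3 of the 10 genes, Chac1, Asns and Trib3, and in 1304 of all 32851 promoters (3.97%). The matched stretches are shown 5′ to 3′ on the gene's strand, with the letters of the match in capitals:
Chac1: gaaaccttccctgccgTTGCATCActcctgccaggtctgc
Asns: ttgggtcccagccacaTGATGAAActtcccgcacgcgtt
Trib3: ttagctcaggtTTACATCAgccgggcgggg
The Chac1 stretch lies at chr2:119351033-119351072 on the plus strand, with the match beginning 193 bases before the start and read on the opposite strand. The Asns stretch lies at chr6:7693210-7693248 on the minus strand, with the match 23 bases before the start. The Trib3 stretch lies at chr2:152344028-152344057 on the minus strand, with the match on the opposite strand and beginning at base 15 of the transcript. The ER stress element, present in 0.119% of all promoters, and the E box CACGTG, present in 7.15%, were found in none of the 12 promoter windows of the 10 genes. A match is only a description of the letters in this window. Of the 3 genes with the core, Trib3 rose at 3 hr in control cells, Chac1 had its highest counts there, and Asns did not pass the test in any comparison.

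Normalized counts per kilobase of exon sequence ranked the genes in uninjected control thymocytes. Phgdh stood highest at 8411 ± 2059 (SD, n = 3), followed by Atf4 at 2180 ± 298. Psat1 (808 ± 91.0) and Ddit4 (771 ± 124) came next and overlapped each other. Ddit3 (311 ± 51.4) and Atf5 (255 ± 45.5) also overlapped. Sesn2 stood at 113 ± 9.40 and Asns at 79.6 ± 14.2, without overlap. Trib3 (8.28 ± 1.74) and Chac1 (1.12 ± 1.00) were the lowest. In WNK1-deficient cells at 0 hr the order of Ddit4 and Ddit3 was not resolved, with 295 ± 48.0 and 314 ± 46.1 per kilobase (SD, n = 4).

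**Figure D1:**
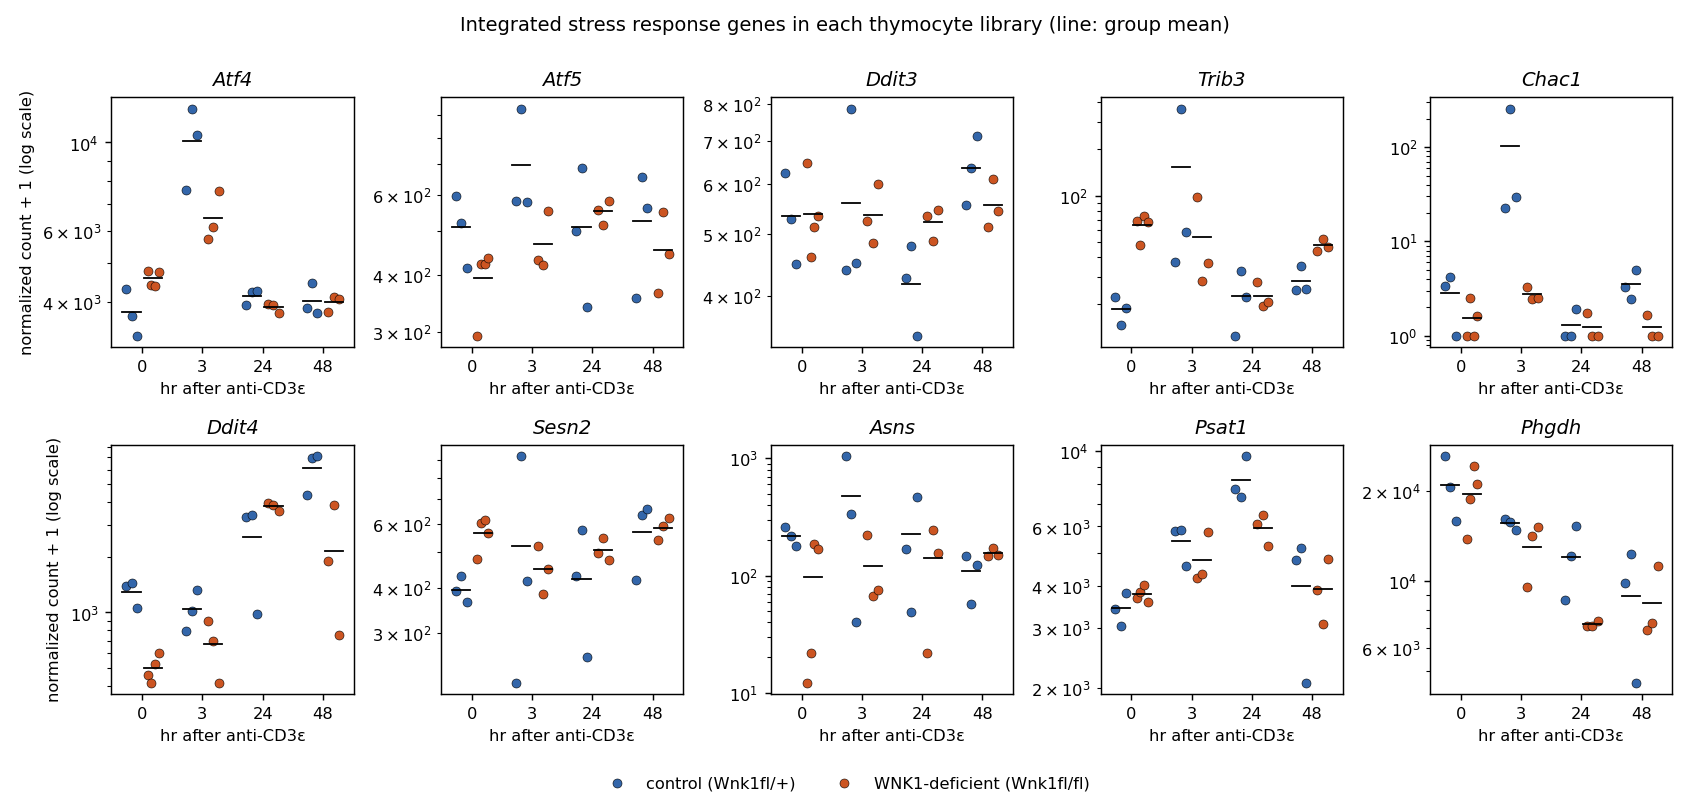
Normalized count plus 1 (log axis) of each of the 10 genes in all 25 libraries against time after anti-CD3ε (hr), with control libraries in blue, WNK1-deficient libraries in orange and a line at each group mean. Atf4 and Chac1 stand highest in control libraries at 3 hr, Trib3 in 1 library of that group, Ddit4 is highest at 24 and 48 hr, and Asns is spread widely within groups.

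Atf4 (chr15:80255184-80257545), the factor that gives the response its name, was higher at 3 hr than at 0 hr in both genotypes. The estimated rise was larger in control cells, but the limma test of a difference between the rises, given below, did not pass. Control libraries held 4306, 3683 and 3286 normalized counts at 0 hr and 7618, 12160 and 10426 at 3 hr, so that every library at 3 hr was above every library at 0 hr. The rise was 2.65-fold (log2 change 1.40 ± 0.14 SE, adjusted p = 2.06e-07) and passed with lane as a covariate (adjusted p = 0.00207). This lane fit rests on the linking libraries named above. WNK1-deficient libraries held 4760, 4400, 4383 and 4740 at 0 hr and 5730, 6155 and 7554 at 3 hr, again without overlap. Their rise was 1.41-fold (log2 change 0.49 ± 0.13, adjusted p = 0.00851), and it did not pass without WNK1-deficient replicate 3 at 3 hr (log2 change 0.38, adjusted p = 0.0709) or with lane as a covariate (0.60, adjusted p = 0.502). Direct comparison of the genotypes at 3 hr placed WNK1-deficient cells 1.54-fold lower (log2 difference -0.62 ± 0.14, adjusted p = 0.00630), with no overlap. Lane was not balanced here, with control replicates 1 and 2 named for lane 3 and all other libraries of that time for lane 4. Without the 3 libraries that stood apart, among them control replicate 3 of this time, the log2 difference between genotypes was -0.58 (adjusted p = 0.0312). Without control replicate 2, the highest, it was -0.47 (adjusted p = 0.0464). With only the 6 libraries of that time in the fit it did not pass (adjusted p = 0.141).

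By 24 hr Atf4 had returned to 3932, 4222 and 4241 in control and 3952, 3929 and 3739 in WNK1-deficient libraries. It fell by 1.26 from 3 to 24 hr in control (adjusted p = 1.61e-06) and by 0.73 in WNK1-deficient cells (adjusted p = 0.000387) on the log2 scale, within a sex. At 48 hr all 6 libraries lay between 3743 and 4452. At 0 hr WNK1-deficient libraries all lay above control, but the log2 difference of 0.29 (95% interval 0.02 to 0.56) did not pass over all genes (adjusted p = 0.112).

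Atf5 (chr7:44812256-44816658) and Ddit3 (chr10:127290793-127296291) encode the other transcription factors of the group. ATF5 is a relative of ATF4 that is also controlled through its translation, and Ddit3 encodes CHOP, which promotes cell death under prolonged stress. Neither passed the test in any of the 15 comparisons. Atf5 held 581, 927 and 577 normalized counts in control and 430, 420 and 552 in WNK1-deficient libraries at 3 hr, a log2 difference of -0.55 (95% interval -1.09 to -0.003, adjusted p = 0.212) without overlap. Ddit3 held 623, 527 and 447 in control libraries at 0 hr and 438, 787 and 449 at 3 hr, a log2 change of 0.02 (95% interval -0.38 to 0.43). Over all 25 libraries Ddit3 stayed between 345 and 787, the smallest ratio of highest to lowest among the 10 genes.

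Trib3 (chr2:152337425-152344060), a pseudokinase that restrains ATF4 activity, was low in all cells and differed by genotype before stimulation. At 0 hr it held between 13.7 and 21.1 normalized counts in control libraries and 67.8, 46.9, 73.2 and 66.8 in WNK1-deficient libraries, which were 3.48-fold higher without overlap (log2 difference 1.80 ± 0.55, adjusted p = 0.0224). This call was lost with lane as a covariate (log2 difference 1.57, adjusted p = 0.412) and without control replicate 1, control replicate 2 or WNK1-deficient replicate 1, where adjusted p reached 0.0881. Numbers shared between replicates did not pair these libraries, and with the replicate number as a block adjusted p was 0.0602.

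At 3 hr Trib3 held 36.3, 363 and 57.6 in control libraries, all above 0 hr. Most of the group's mean came from control replicate 2. The rise was 5.05-fold (log2 change 2.34 ± 0.58, adjusted p = 0.00378) and, without replicate 2, a log2 change of 1.35 (adjusted p = 0.0317). With lane as a covariate it did not pass (2.53, adjusted p = 0.127). WNK1-deficient libraries held 96.7, 27.2 and 35.5 at 3 hr and overlapped both their own 0 hr libraries and the control. They were lower at 24 hr (26.7, 18.3 and 19.7) than at 0 hr by 1.52 on the log2 scale (adjusted p = 0.0395), a call that leaving out any 1 of 6 of the 7 libraries compared ended. Control cells fell by 2.15 on the log2 scale from 3 to 24 hr (adjusted p = 0.00552), and without control replicate 2 at 3 hr by 1.17 (adjusted p = 0.0524).

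Chac1 (chr2:119351242-119354326), which encodes a glutathione-degrading enzyme and is a sensitive ATF4 target, was nearly confined to control libraries at 3 hr. It held 21.6, 256 and 28.3 normalized counts there, and no more than 4.00 in any of the other 22 libraries. WNK1-deficient libraries held 2.32, 1.43 and 1.48 at 3 hr. In reads, 308 were counted in the 3 control libraries and 6 in the 3 WNK1-deficient libraries at 3 hr, a ratio of 57.5 after scaling (exact 95% interval 26.1 to 158, which covers counting error only). Control replicate 2 gave most of these reads, and without it the ratio was 13.8 (exact interval 5.92 to 39.5). Against 5 reads in control cells at 0 hr the ratio was 56.7 (24.0 to 176), and 13.6 (5.46 to 43.8) without replicate 2. A single read was counted in control cells at 24 hr. Because Chac1 entered the genes tested only through the control libraries at 3 hr, these values are a description, and its adjusted p-values in comparisons with that group are not given.

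The same control library, replicate 2 at 3 hr, was the highest of all 25 in Atf4, Atf5, Ddit3, Trib3, Chac1 and Sesn2. It was not the library with double-positive markers, and its double-positive markers Cd4 and Cd8a stood at 247 and 432 normalized counts against 5508 and 12652 in replicate 3. It also had the most Wnk1 of any library, 20719 normalized counts.

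Ddit4 (chr10:59949675-59951770), also called REDD1, restrains mTORC1 and responds to several stresses besides the ATF4 pathway. It behaved differently from Atf4, rising late rather than at 3 hr, and was lower in WNK1-deficient cells at 0 and 48 hr. At 0 hr control libraries held 1392, 1444 and 1059 normalized counts and WNK1-deficient libraries 455, 414, 521 and 599, which were 2.61-fold lower without overlap (log2 difference -1.38 ± 0.43, adjusted p = 0.0246). The call was lost with lane as a covariate (-1.01, adjusted p = 0.334) and when any 1 of 4 single libraries was left out (control replicates 1 and 2, WNK1-deficient replicates 1 and 2, adjusted p up to 0.0876).

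At 24 hr the control libraries held 3320, 3397 and 977 and the WNK1-deficient libraries 3964, 3866 and 3567, the latter all higher than every control library at that time. WNK1-deficient cells had risen 7.69-fold from 0 hr (log2 change 2.94 ± 0.43, adjusted p = 2.12e-05) and 5.95-fold from 3 hr (adjusted p = 0.000221), the second step within a sex. The control change from 0 hr was 0.79 and did not pass (adjusted p = 0.191), but without control replicate 3 it was 1.38 and passed (adjusted p = 0.0169). The low Ddit4 of that library went with a high Il2ra, which stood at 5645, 8005 and 30251 in control replicates 1, 2 and 3 at 24 hr. The part of this difference in the Ddit4 result was not tested.

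At 48 hr control libraries held 4379, 6910 and 7109 and WNK1-deficient libraries 1896, 3823 and 751. Ddit4 was again 3.40-fold lower in WNK1-deficient cells (log2 difference -1.77 ± 0.46, adjusted p = 0.0146) without overlap. Il2ra in the same WNK1-deficient libraries was 22173, 8068 and 25196, so that the library with the least Il2ra had the most Ddit4. In the control libraries Il2ra was 11138, 7273 and 12387. Without WNK1-deficient replicate 3 the difference was -1.15 (adjusted p = 0.101), and it did not pass without control replicate 2 or 3 either. Relative to 0 hr, within a sex, Ddit4 rose 4.65-fold in control (adjusted p = 0.000521) and 3.57-fold in WNK1-deficient cells (adjusted p = 0.00314), the latter not past the test with lane as a covariate (adjusted p = 0.0568). The genotype difference at 48 hr did not pass with lane as a covariate either (-1.40, adjusted p = 0.137).

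Sesn2 (chr4:132492804-132510456) encodes Sestrin 2, a leucine sensor that also restrains mTORC1. It did not pass in any comparison. At 0 hr control libraries held 389, 429 and 364 normalized counts and WNK1-deficient libraries 477, 603, 612 and 565, a log2 difference of 0.51 (SE 0.32, adjusted p = 0.256) without overlap. At 3 hr the control libraries alone spanned 217 to 922. In bulk RNA, fewer expressing cells and less RNA per cell cannot be told apart for any of these genes.

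The serine synthesis enzymes Phgdh (chr3:98313171-98339969), which catalyses the committing step of the pathway, and Psat1 (chr19:15905123-15925059), the following aminotransferase, differed in their course after anti-CD3ε, Psat1 being higher and Phgdh lower at 24 hr than at 0 hr. Psat1 held 3427, 3052 and 3827 normalized counts in uninjected control libraries. These counts were 5833, 5869 and 4589 by 3 hr and 7716, 7341 and 9687 by 24 hr. The 24 hr libraries were all above the 3 hr libraries, and these all above 0 hr. Psat1 rose 2.39-fold from 0 to 24 hr (log2 change 1.26 ± 0.24, adjusted p = 0.000401). The rise to 3 hr (log2 change 0.66) passed narrowly (adjusted p = 0.0372), and was lost without either of control replicates 1 and 2 at either time and with lane as a covariate (0.29, adjusted p = 0.382). In WNK1-deficient cells Psat1 went from 3696, 3838, 4035 and 3585 at 0 hr to 6091, 6465 and 5257 at 24 hr, a 1.56-fold rise (adjusted p = 0.0345). That rise was lost when any 1 of 5 of the 7 libraries was left out (adjusted p up to 0.122). By 48 hr Psat1 held 4766, 5185 and 2066 in control and 3892, 3092 and 4812 in WNK1-deficient libraries, overlapping 0 hr in both genotypes, with log2 changes from 0 hr of 0.12 (95% interval -0.38 to 0.62) and 0.03 (-0.44 to 0.50). At 24 hr WNK1-deficient libraries were all below control, with a log2 difference of -0.47 (95% interval -0.97 to 0.03, adjusted p = 0.220). The summed count of 8 proliferation genes was also highest at 24 hr in control libraries, at 95898 to 141455. In WNK1-deficient libraries it was 85382 to 87261 at 24 hr, against 64069 to 78182 at 0 hr and 38908 to 100955 at 48 hr. Mean Mcm2, Mcm5 and Pcna were lower at 24 than at 0 hr in WNK1-deficient cells, and Mki67, Top2a, Ccnb1, Cdk1 and Birc5 were higher. Their part in the Psat1 values was not tested.

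Phgdh fell. Uninjected control libraries held 26144, 20669 and 15916 normalized counts. The values were 8666, 12109 and 15260 by 24 hr and 9869, 12325 and 4566 by 48 hr. The fall by 48 hr was 2.49-fold (log2 change -1.32 ± 0.30, adjusted p = 0.00125), within a sex and without overlap. WNK1-deficient libraries went from 13871, 18752, 24189 and 21116 before injection to 7057, 7081 and 7385 by 24 hr and 6871, 7224 and 11216 by 48 hr. These falls were 2.66-fold (adjusted p = 0.000536) and 2.32-fold (adjusted p = 0.00278), and both were lost with lane as a covariate (log2 change -0.74 at 24 hr and -0.17 at 48 hr). The genotypes did not differ past the test at any time, and at 24 hr the log2 difference was -0.71 (95% interval -1.33 to -0.09, adjusted p = 0.128) with no overlap.

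Asns (chr6:7675165-7693209), asparagine synthetase, had the widest spread within groups of the 10 genes. The SD of its log2 value within groups was 1.51 against a median of 0.29 over all genes tested, and 98.4% of the genes tested had less spread. At 0 hr control libraries held 257, 217 and 179 normalized counts and WNK1-deficient libraries 11.1, 20.7, 184 and 168. The WNK1-deficient libraries fell into a low and a high pair, and the log2 difference of -2.01 (95% interval -4.19 to 0.17) did not pass (adjusted p = 0.173). At 3 hr the control libraries held 1047, 333 and 38.8. No statement on the direction of Asns can be made from these libraries.

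**Figure D2:**
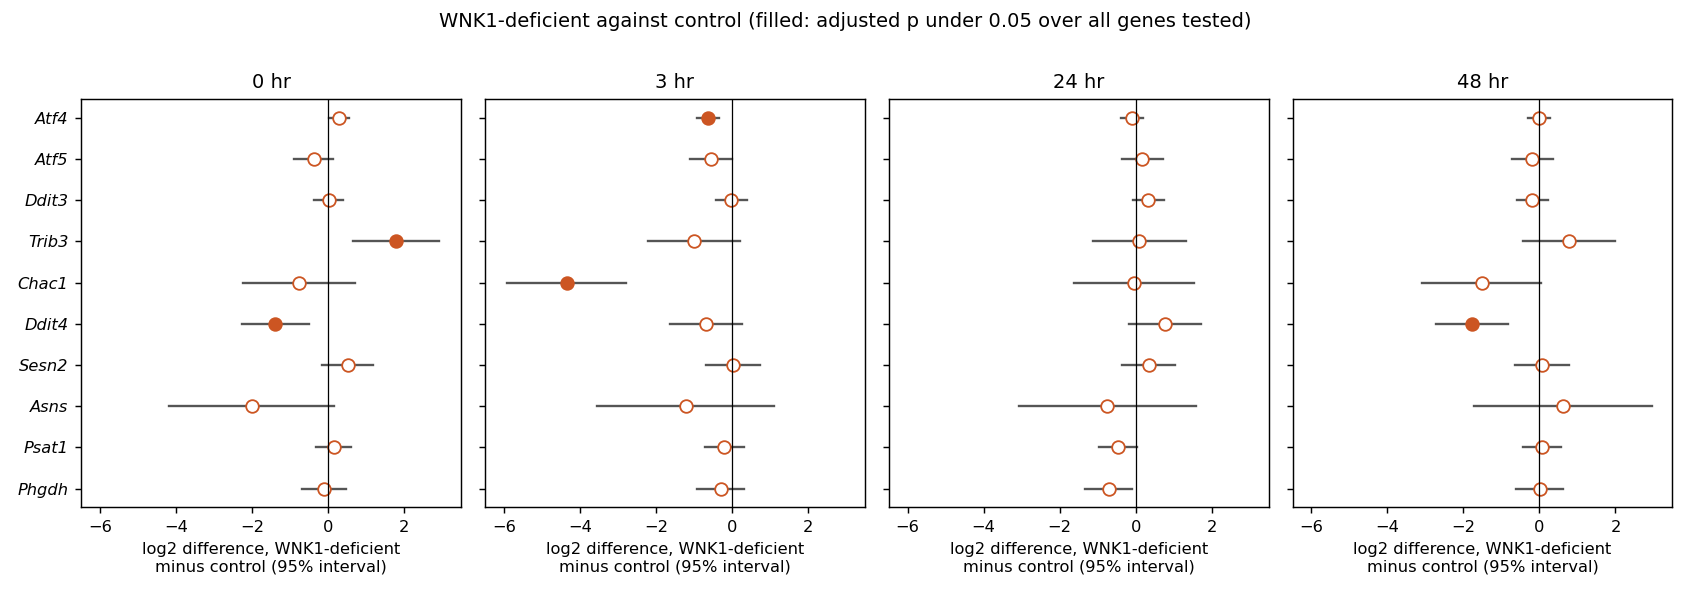
Log2 difference of WNK1-deficient minus control cells with its 95% interval for each gene at 0, 3, 24 and 48 hr, where filled points passed the test over all genes. Filled points are Trib3 (higher) and Ddit4 (lower) at 0 hr, Atf4 and Chac1 (lower) at 3 hr and Ddit4 (lower) at 48 hr, of which the Chac1 point was built into the minimum level for testing.

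The counts over the 10 genes are given beside those of all genes tested. At 0 hr 1 gene was higher and 1 lower in WNK1-deficient cells, 2 of 10, against 22.1% of all genes tested. At 3 hr Atf4 and Chac1 were lower (9.18% of all genes in either direction, 3.43% lower). The call of Chac1 was built into the minimum level, and of the other 9 genes 1, Atf4, was lower. At 24 hr none of the 10 passed in limma, edgeR or DESeq2, against 12.5% of all genes in limma, and 1 (Phgdh) had an unadjusted p under 0.05. With lane as a covariate 2 of the 10 passed at 24 hr, where each genotype had libraries of both lanes 3 and 4. At 48 hr 1 of 10 was lower (13.1%). Groups did not overlap for 4, 3, 4 and 3 of the 10 genes at 0, 3, 24 and 48 hr, against 40.5%, 28.2%, 33.9% and 23.3% of all genes.

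**Figure D3:**
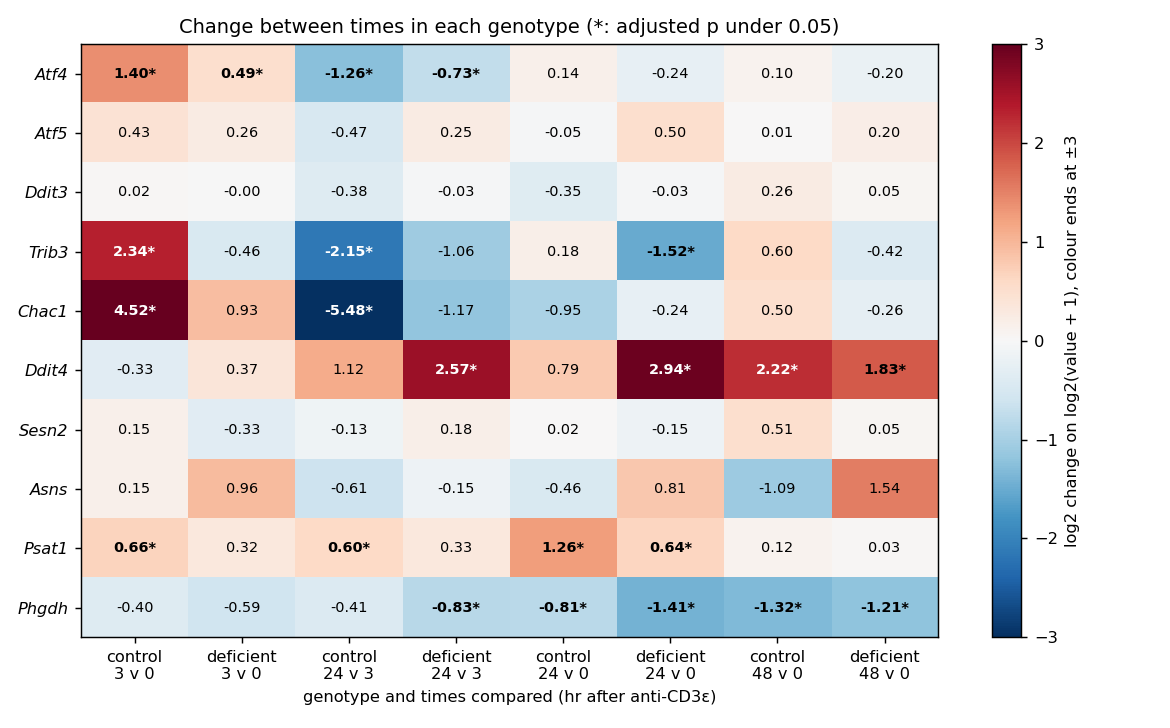
Log2 change of each gene on the log2(value + 1) scale (colour and printed value) between the times named under each column, for control and WNK1-deficient cells, with an asterisk where it passed the test over all genes. Atf4 and Trib3 rose and fell again in control cells, Ddit4 was higher at 48 hr in both genotypes, and Phgdh was lower at 24 and 48 hr in both. Values of Chac1 depend on the added 1.

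The steps to and from 3 hr in control cells are counted without Chac1. Of the other 9 genes, 3 rose and none fell from 0 to 3 hr in control cells (37.0% of all genes changed, 18.4% rose), and of all 10 genes 1 rose in WNK1-deficient cells (24.7% changed). From 3 to 24 hr, 1 rose and 2 fell of the 9 in control (43.6%), and 1 rose and 2 fell of the 10 in WNK1-deficient cells (37.1%). From 0 to 24 hr, 1 rose and 1 fell in control (33.9%) and 2 rose and 2 fell in WNK1-deficient cells (30.4%). From 0 to 48 hr, 1 rose and 1 fell in each genotype, against 42.4% of all genes in control and 26.8% in WNK1-deficient cells.

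Whether the response itself differed between genotypes was tested as a genotype by time interaction, which shares the 0 hr libraries with the comparisons above. None of the 10 genes passed at 3, 24 or 48 hr in limma, against 0.0707%, 0.658% and 1.36% of all genes, and 3 (Chac1 among them), 2 and 0 of them had an unadjusted p under 0.05, against 12.8%, 14.3% and 12.9% of all genes. edgeR also called none. DESeq2 called 2 at 3 hr (Atf4 and Trib3) and 1 at 24 hr (Ddit4), against 1.42% and 2.57% of all genes. At 3 hr the limma estimate for Atf4 was -0.91 (95% interval -1.30 to -0.52, adjusted p = 0.0646), and for Trib3 -2.79 (-4.45 to -1.13, adjusted p = 0.184). Without control replicate 1 at 3 hr, Atf4 and Trib3 passed (adjusted p = 0.00454 and 0.0201).

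Other genes of the pathway, drawn from lists named by function, were tested in the same way. Among all genes tested, 18.4% rose and 37.0% changed from 0 to 3 hr in control cells, and 24.7% changed in WNK1-deficient cells. Of 9 amino acid transporters tested, 7 rose and none fell from 0 to 3 hr in control cells, with a median log2 change of 1.69 against -0.03 over all genes. They were Slc6a9 (glycine), Slc1a4, Slc7a1 (cationic amino acids), Slc7a5 and Slc3a2 (the LAT1 heterodimer), Slc38a2 and Slc1a5. Slc7a1 rose from a mean of 2357 to 10240 normalized counts (log2 change 2.11 ± 0.19, adjusted p = 6.46e-08) and Slc7a5 from 2763 to 9104 (1.69 ± 0.29). In WNK1-deficient cells 4 of 9 rose, namely Slc7a1 (log2 change 1.90), Slc7a5 (1.21), Slc3a2 (1.05) and Slc1a5 (0.85). At 3 hr the log2 difference between genotypes in Slc3a2 was -0.003 (95% interval -0.33 to 0.32).

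Of 13 aminoacyl-tRNA synthetase and tRNA export genes, 10 rose from 0 to 3 hr in control and 7 in WNK1-deficient cells, and none fell in either. The shares of all genes were 18.4% risen and 37.0% changed in control, and 24.7% changed in WNK1-deficient cells. The largest rises in control cells were those of Tars (log2 change 1.09 ± 0.14), Iars (1.09 ± 0.14) and Eprs (1.00 ± 0.20), the synthetases for threonine, isoleucine, and glutamate and proline. With lane as a covariate 6 rose in control and 1 in WNK1-deficient cells. At 3 hr Cars (log2 difference -0.54, adjusted p = 0.0444) and Tars (-0.51, adjusted p = 0.0275) were lower in WNK1-deficient cells, 2 of 13 with overlapping groups, and at the other times none of the 13 passed. Of all genes tested, 3.43% were lower at 3 hr. Without the 3 libraries that stood apart, or with lane as a covariate, 1 of the 13 was lower at 3 hr.

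**Figure D4:**
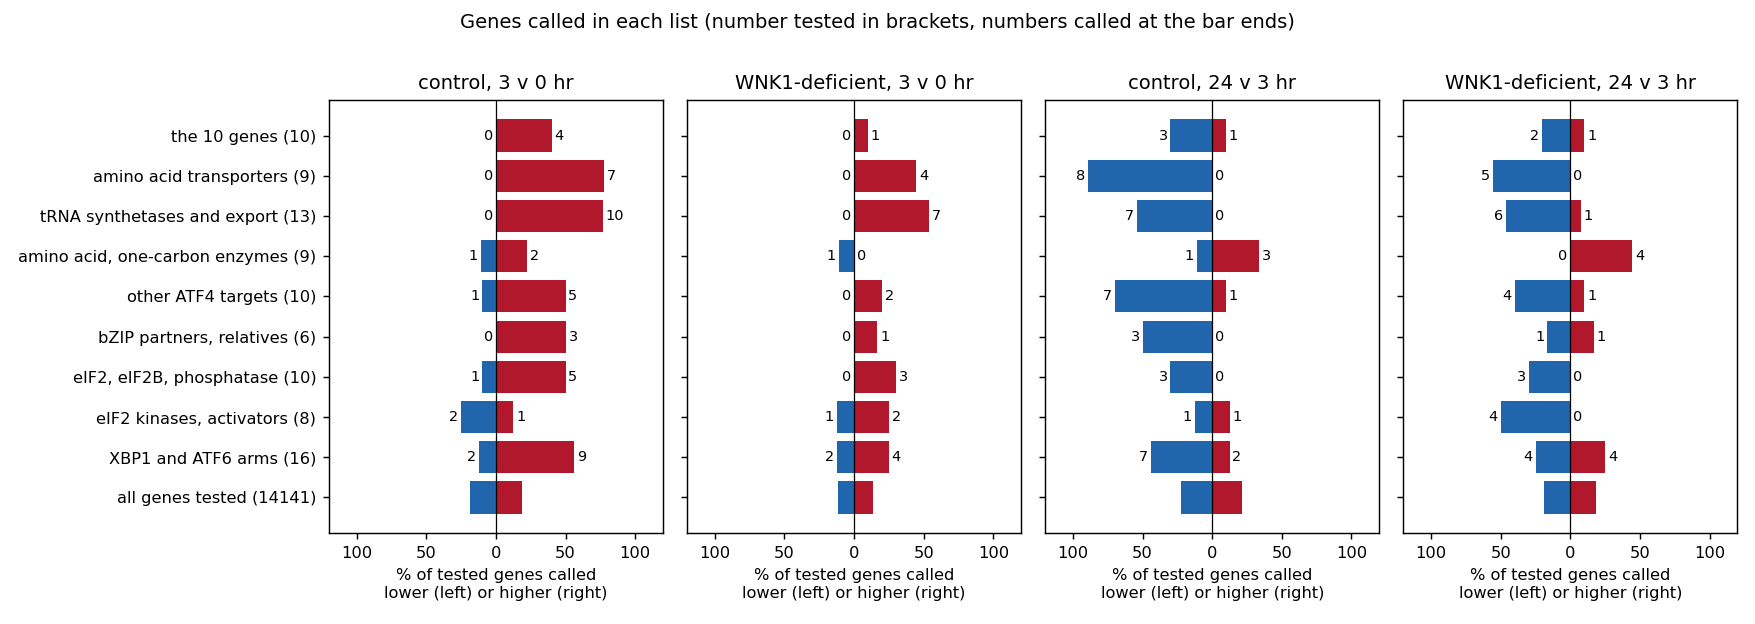
Share of the tested genes of each list that were higher (red, right) or lower (blue, left) past the test, in percent, for 3 against 0 hr and 24 against 3 hr in control and WNK1-deficient cells, with the number of genes at the bar ends and the share of all genes tested in the bottom row. At 3 hr 7 of 9 transporters and 10 of 13 synthetase genes were higher in control cells, and 4 and 7 in WNK1-deficient cells.

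Other targets and partners of ATF4 were mixed. Beside the counts that follow, 18.4% of all genes rose and 37.0% changed from 0 to 3 hr in control cells, and 24.7% changed in WNK1-deficient cells. Of 10 other targets tested, 5 rose and 1 fell from 0 to 3 hr in control cells, with Vldlr, Pmaip1 (NOXA, log2 change 1.87) and the translation inhibitor Eif4ebp1 (1.49) among the risers and Ndrg1 (-1.34) the gene that fell. In WNK1-deficient cells 2 rose, Vldlr and Pmaip1 (1.51). Vldlr passed the minimum level only through WNK1-deficient libraries, above all those at 24 hr (mean 40.2 normalized counts). Its mean was 0.352 at 0 hr and 12.9 at 3 hr in control, and 5.61 and 21.9 in WNK1-deficient cells. Its rise in WNK1-deficient cells and its difference between genotypes were therefore partly built into its testing. Of 6 bZIP partners and relatives, Atf3, Cebpb and Cebpg rose in control cells and Atf3 alone in WNK1-deficient cells. Atf3 passed the minimum level only through the libraries at 3 hr, so that its rises were built into its testing. Of 10 genes for eIF2, eIF2B and the eIF2 phosphatase cofactors, 5 rose and 1 fell in control and 3 rose in WNK1-deficient cells, with Ppp1r15a (GADD34, which directs eIF2 dephosphorylation) up by 1.16 and 0.95 on the log2 scale. Of 8 eIF2 kinases and activators, Eif2ak3 (PERK) rose in both genotypes (0.47 and 0.51) and Eif2ak4 (GCN2) passed in neither. Of 9 amino acid and one-carbon enzymes outside the 10 genes, 2 rose (Mthfd2, a mitochondrial folate enzyme, by 1.34, and Mthfd1l by 0.44) and Psph, the last enzyme of serine synthesis, fell by 0.55 on the log2 scale in control cells, while in WNK1-deficient cells none rose and 1 fell. Of 16 genes of the XBP1 and ATF6 arms of the unfolded protein response, 9 rose and 2 fell in control and 4 rose and 2 fell in WNK1-deficient cells, with the chaperone Hspa5 (BiP) up by 1.59 and 0.72 and Xbp1 down in both. With lane as a covariate the numbers that rose in control cells were 2 other targets, 0 bZIP genes, 3 genes of the eIF2 list and 4 of the XBP1 and ATF6 arms, and none rose in WNK1-deficient cells in these lists.

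From 3 to 24 hr, within a sex, 8 of the 9 transporters, 7 of the 13 synthetase genes and 7 of the 10 other targets fell in control cells, with median log2 changes of -1.31, -0.36 and -1.07. In WNK1-deficient cells 5, 6 and 4 of them fell, and 1 synthetase gene, Sars, rose. The shares of all genes that changed in either direction in this step were 43.6% in control and 37.1% in WNK1-deficient cells. Slc7a11, the cystine transporter, fell the most among transporters in control cells (log2 change -3.19, adjusted p = 0.00143).

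Slc7a11 was the transporter that passed the test between genotypes at 3 hr. Control libraries held 56.9, 239 and 552 normalized counts and WNK1-deficient libraries 32.5, 38.6 and 17.8, all lower (log2 difference -2.76 ± 0.72, adjusted p = 0.0181). The highest value was that of replicate 3, the library with double-positive markers, and without it the log2 difference was -2.01 and did not pass (adjusted p = 0.111). It did not pass with lane as a covariate (adjusted p = 0.0594) or without control replicate 2 or WNK1-deficient replicate 3 either. Slc43a1 did not overlap between genotypes at 3 hr in the other direction (1082 to 1128 in control and 1485 to 1846 in WNK1-deficient libraries), with a log2 difference of 0.61 (adjusted p = 0.222). At 0 hr Slc7a11 overlapped between genotypes.

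Before stimulation, 18 of the 86 listed genes tested were higher in WNK1-deficient cells and 5 were lower, against 22.1% of all genes in either direction. Those lower were Oma1, Got1 (log2 difference -0.93), Xbp1 (-0.52), Edem1 (-0.49) and Sec61b (-0.61). Of 9 transporters 4 were higher and none lower, with Slc6a9 at 3.52, 5.28 and 2.12 in control and 41.5, 53.0, 53.5 and 42.3 in WNK1-deficient libraries (log2 difference 3.44 ± 0.63, adjusted p = 0.000640), and Slc38a2 at a mean of 5725 in control and 11842 in WNK1-deficient cells (1.04 ± 0.19, adjusted p = 0.000535). Of the 10 other targets 4 were higher, Vldlr, Bbc3 (PUMA, a pro-apoptotic protein), Pmaip1 and Ero1l. Vldlr was very low, at most 1.06 normalized counts in control and 1.41 to 13.8 in WNK1-deficient libraries. Its difference was partly built into the minimum level, as given above. Cebpd, Cebpg and Nfe2l2 were higher among the 6 bZIP genes, and none of the 13 synthetase genes passed. The paralogs Trib1 (log2 difference 2.15) and Trib2 (2.58) were higher in WNK1-deficient cells at 0 hr as Trib3 was. In all of these comparisons lane and genotype cannot be told apart, and with lane as a covariate 1 transporter, none of the other targets and 1 bZIP gene passed. The share of all genes that passed with lane as a covariate is not given here. The markers of other cells that differed at 0 hr, given above, moved with these values too, and their part was not tested.

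Bbc3 stood higher in WNK1-deficient cells at 24 hr as well, at 441, 482 and 423 normalized counts against 114, 135 and 65.1 in control (log2 difference 2.15 ± 0.32, adjusted p = 0.000188), and at 3 hr (1.19, adjusted p = 0.0229). At 24 hr, markers of NK and innate lymphoid cells were also higher in WNK1-deficient libraries (4 of 6 tested, summed count 9830 to 10969 against 3012 to 7381), and their part in these values was not tested. At 48 hr Slc6a9 (2.45) and Slc38a2 (0.74) were the transporters that were higher in WNK1-deficient cells, and none passed with lane as a covariate.

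The genes with patterns most like each member were taken by Pearson correlation of log2 values over the 25 libraries, which share group structure. For Atf4 they were Eif4ebp1 (r = 0.94), Srfbp1 and Tmem39a (both 0.91). For Chac1 they were Dmbt1 (0.88), Svil and Tmem39a (both 0.86), and for Trib3 Fam184b (0.75), Shc4 and Sec24d (both 0.74). Ddit4 was most like Rinl (0.96), Nckap1l (0.95) and Fgd3 (0.94), and Psat1 most like 2610318N02Rik (0.89), Cdk2ap1 (0.88) and Ddx11 (0.87). Phgdh was most like Pgls (0.92), Rangrf (0.91) and Mrps28 (0.90). Values for Atf5 (Aup1, 0.80), Ddit3 (Bahd1, 0.77), Sesn2 (Pygo2, 0.76) and Asns (Gm5815, 0.63) were lower. Tmem39a was the gene named for more than 1 member.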

How the data were processed

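The 25 libraries were made with a stranded polyA kit and sequenced as single-end reads. Per the labels and the study's methods, the authors trimmed reads with Trimmomatic 0.36, aligned them with STAR 2.5.2a to GRCm38, counted with RSEM 1.2.31 and normalized with DESeq2 1.18.1 in R 3.4.1. The deposited signal values are counts divided by a size factor per library. Whole reads were recovered from them (100.0% of values whole within 0.001) for the count tests. Genes with a mean of at least 10 (14141 of 48795) were tested on log2(value + 1) with limma 3.58.1 (R 4.3.3, trend, empirical Bayes, 8 group means, 2-sided), with Benjamini-Hochberg adjustment over all genes tested and a threshold of 0.05. A rise, a fall or a call means this adjusted p. edgeR 4.0.16 and DESeq2 1.42.0 on recovered reads were alternatives. Replicates were separate samples of a group. Fold changes understate the change of low genes because of the added 1. Gene symbols came from a table of identifiers (32771 matched) and coordinates from RefSeq (GRCm38.p6). Exon lengths came from an older mouse annotation and serve only as lengths. RSEM shares reads among similar copies, so that genes with near-identical copies are uncertain.

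The 10 genes, the lists and the tests were chosen with earlier results of these data known. All 10 genes were named. From each list the named genes were the up to 3 with the largest change among those called, plus fixed core genes of the pathway. Genes named beyond this rule were chosen after their values were seen. The limma test was tested on simulated data.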

Additional observations from a re-analysis of the deposited data

Results flagged for a closer look

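Atf5 in uninjected WNK1-deficient cells had a library far from the others of its group. Replicate 1 held 293 normalized counts against 422, 421 and 434 in the other replicates, and its gap to the nearest of them was 0.905 of the group's whole range, above the 95% critical value of 0.829 for 4 samples. Chance alone gives such a gap in about 1 in 20 groups.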

How the results depend on the processing

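The 27 called comparisons of the 10 genes gave 530 values under the alternatives, of which 452 were still called, 78 were not and 0 changed direction. Of the 27, 10 kept the call under every alternative. The 27 and the counts that follow include the calls of Chac1 in comparisons with control cells at 3 hr. Those calls were built into the minimum level. The number of the 10 genes called changed as follows. With a minimum mean of 100 it was 1 for the genotypes at 0 hr (2 otherwise) and at 3 hr (2 otherwise), and 2 from 0 to 3 hr and from 3 to 24 hr in control (4 otherwise in each). With no filter it was 1 from 0 to 24 hr in control (2 otherwise) and 2 in WNK1-deficient cells (4 otherwise), and with no trend 1 in control. With only the groups compared it was 0 for the genotypes at 3 and 48 hr, 1 from 0 to 24 hr in control and 1 for the interaction at 24 hr. With lane as a covariate it was 1 for the genotypes at 0 hr, 2 at 24 hr (0 otherwise), 2 from 0 to 3 hr in control, 2 from 0 to 24 hr and 1 from 0 to 48 hr in WNK1-deficient cells, and 1 for the interaction at 48 hr. Without the 3 libraries that stood apart 1 gene, Ddit4, passed in the interaction at 24 hr, and DESeq2 called 2 and 1 in the interactions at 3 and 24 hr. The cause was not tested.

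Leaving out each replicate in turn gave 0 to 2 for the genotypes at 0 hr, 0 to 1 at 48 hr, 3 to 4 from 0 to 3 hr, 1 to 3 from 0 to 24 hr, 2 to 3 from 0 to 48 hr and 2 to 4 from 3 to 24 hr in control, 0 to 1, 2 to 3 and 2 to 3 from 0 to 3 hr, 0 to 24 hr and 3 to 24 hr in WNK1-deficient cells, and 0 to 3 for the interaction at 3 hr. Psat1 changed direction with lane as a covariate, to -1.12 for the genotypes at 0 hr, -0.73 from 0 to 48 hr in control and 1.87 for the interaction at 48 hr, against 0.15, 0.12 and -0.09. Replicate numbers did not pair the samples (r of deviations between -0.197 and 0.205 over 36 pairs). With the replicate block 1 gene was called for the genotypes at 0 hr, 1 from 0 to 24 hr in control and 2 in WNK1-deficient cells. Scaling libraries to the same total moved the split of all genes from 813 higher and 485 lower to 979 and 351 for the genotypes at 3 hr, and from 867 and 983 to 1013 and 697 at 48 hr. The list counts with lane as a covariate or without the 3 libraries that stood apart were added after the data were seen. They have no share of all genes beside them.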

Other observations

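Among the paralogs of the 10 genes, Trib2 and Sesn3 rose late in control cells. Trib2, a pseudokinase related to Trib3, went from a mean of 223 normalized counts at 0 hr to 7134 at 48 hr (log2 change 4.98 ± 0.52, adjusted p = 1.98e-07), and Sesn3, a relative of Sesn2, from 2252 to 7689 (1.74 ± 0.22, adjusted p = 2.42e-06), both within a sex. Trib1 peaked at 3 hr, at a mean of 4975 in control and 5787 in WNK1-deficient cells.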
